A study of Mus musculus with 9 samples.

Results

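The Dppa4 peaks of mouse chromosome 11 outside the HoxB cluster were examined in segments of 5 Mb, to see which segments gave the chromosome its high peak density and its larger share of peaks in P19 cells. Of the 229345 peaks in 6 deposited lists, 18301 lay there, and another 90 peaks that overlapped chr11:96040000-96250000 (mm9) were left out. The chromosome was chosen by its peak density and by its shares of peaks in P19 and E14, which are therefore given as a description with no test. DPPA4 was immunoprecipitated from 3 mouse cell lines and sequenced (ChIP-seq), with 2 libraries per line, and peak calling by the authors was done library by library. The 3T3 line is a fibroblast line, here ectopically expressing Dppa4 and grown in DMEM with 10% serum. The P19 line is an embryonal carcinoma line, grown in DMEM with 10% serum. The E14 line consists of embryonic stem cells, grown without feeder cells on gelatin in 2i medium with 2% serum. All groups share the DPPA4 antibody and the Nextera library kit, and the labels do not say how Dppa4 was expressed in the 3T3 cells. Peak lists hold no expression values, so the labelled cell types could not be checked against marker genes. The 3 input libraries were not used here, so no value was set against input DNA.

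DPPA4 is a nuclear protein with a SAP domain, a DNA-binding fold, and it works in a complex with its paralogue DPPA2. Both are expressed in pluripotent cells and in the early embryo and are silenced in most differentiated cells such as fibroblasts. In mouse embryonic stem cells the pair is known to bind many gene promoters, above all those rich in CpG dinucleotides. Mouse chromosome 11 is known to be rich in genes.

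Chromosome 11 held 1304 of 15462 and 1426 of 17540 peaks in 3T3, 3435 of 40011 and 4402 of 51196 in P19, and 4623 of 61693 and 3111 of 43443 in E14. Read numbers behind the lists are unknown. As a share of each library, chromosome 11 took 8.43% (Wilson 95% interval 8.01 to 8.88) and 8.13% (7.73 to 8.54) in 3T3. In P19 it took 8.59% (8.31 to 8.86) and 8.60% (8.36 to 8.84), and in E14 7.49% (7.29 to 7.70) and 7.16% (6.92 to 7.41). These intervals cover counting error only. Chromosome 11 thus had the largest share of 20 chromosomes (1 to 19 and X) in all 3T3 and P19 libraries, while in E14 it ranked 3 and 4. Per Mb between its first and last peak it was the densest chromosome in each of the 6 libraries. Its density was 1.89-fold that of the other chromosomes together in 3T3, 1.96-fold in P19 and 1.65-fold in E14. Neighbouring peaks lay close, with a median gap of 26.9 and 27.1 kb in 3T3, 9.20 and 7.72 kb in P19 and 7.55 and 12.5 kb in E14. That gap was the shortest of 20 chromosomes in 5 of 6 libraries, 3T3 replicate 1 being the exception, where chromosome 8 had 26.6 kb.

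The 25 segments were numbered from the start of the chromosome, segment 1 covering 0 to 5 Mb. The first peak lay at 3023224 and the last ended at 121818178, so segments 1 and 25 were taken as 1.98 and 1.82 Mb long. All 25 passed the minimum of 10 peaks in the mean of the 6 libraries, as did 534 segments in the genome. The 5 densest were segment 24 (115 to 120 Mb), segment 25 (from 120 Mb), segment 20 (95 to 100 Mb, without HoxB), segment 21 (100 to 105 Mb) and segment 1. They made up 15.8% of the length and held 38.8 ± 0.137% of the chromosome 11 peaks in 3T3, 38.3 ± 1.71% in P19 and 38.0 ± 0.983% in E14 (SD, n = 2). Their density was 28.2 ± 1.88 peaks per Mb in 3T3, 79.6 ± 10.4 in P19 and 78.6 ± 23.7 in E14 (SD, n = 2). That was 4.63-fold the density of the other chromosomes in 3T3, 4.75-fold in P19 and 3.97-fold in E14. The other 20 segments were also above the other chromosomes, with 1.37-fold their density in 3T3, 1.44-fold in P19 and 1.22-fold in E14. Of the peaks that chromosome 11 held beyond the density of the other chromosomes, the 5 densest segments gave 64.9% in 3T3, 61.4% in P19 and 72.1% in E14.

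High density was thus concentrated but not limited to a few segments. Segments denser than the mean of the other chromosomes in both libraries numbered 17 of 25 in 3T3, against 32.2% of all 534 segments. In P19 they numbered 19 of 25, against 30.5% of all segments, and in E14 17 of 25, against 29.6%. In each line the later stretches of the chromosome were denser on average than the earlier ones. Segments 1 to 10 averaged 5.16 ± 0.316 peaks per Mb in 3T3, 16.1 ± 3.37 in P19 and 16.3 ± 4.11 in E14 (SD, n = 2). For segments 11 to 19 the values were 12.5 ± 0.676 in 3T3, 32.5 ± 5.99 in P19 and 32.0 ± 8.16 in E14 (SD, n = 2). Segments 20 to 25 held 21.0 ± 1.53 in 3T3, 63.4 ± 9.54 in P19 and 61.9 ± 18.98 in E14 (SD, n = 2). These 3 stretches were set after the values were seen. Single segments did not follow that order. Segment 1 was denser than each of segments 2 to 19 in every line, with 19.98 peaks per Mb in 3T3, 51.1 in P19 and 53.4 in E14. Segment 22 had 10.1 in 3T3, 32.0 in P19 and 31.5 in E14, and segment 23 had 4.20 ± 0.566 peaks per Mb in 3T3, 28.8 ± 5.09 in P19 and 26.3 ± 9.48 in E14 (SD, n = 2).

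**Figure D1:**
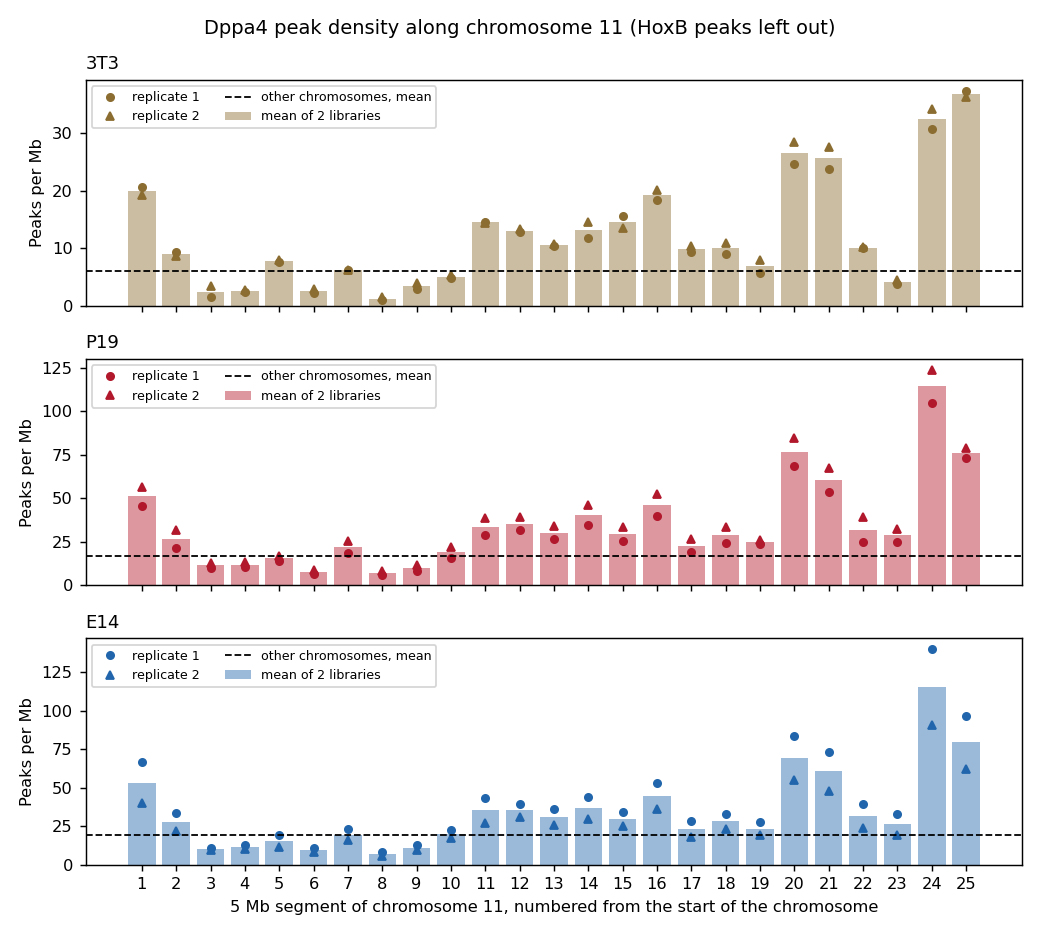
Dppa4 peaks per Mb in the 25 segments of 5 Mb along chromosome 11 (x axis, numbered from its start), with bars for the mean of 2 libraries, points for each library and a dashed line for the mean density of the other chromosomes, in 3T3 (top), P19 (middle) and E14 (bottom). Segment 24 stands highest in P19 (105 and 123.8 peaks per Mb) and E14 (140 and 91), segment 25 in 3T3 (37.4 and 36.3), and segment 8 is lowest in all 3 lines.

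Segment 24 carried more Dppa4 peaks than any other 5 Mb segment of the genome in all P19 and E14 libraries. It held 154 and 171 peaks in 3T3, 525 and 619 in P19 and 700 and 455 in E14. In both 3T3 libraries it ranked 3 of 534. Within chromosome 11, segments 20 and 21 followed. Segment 20 had 123 and 142 peaks in 3T3, 343 and 422 in P19 and 418 and 274 in E14. Segment 21 had 119 and 138 in 3T3, 267 and 337 in P19 and 365 and 241 in E14. Within all 534, segment 20 ranked 9 and 8 in 3T3, 4 in both P19 libraries and 14 in both E14 libraries. Segment 21 ranked 11 and 9 in 3T3, 12 in both P19 libraries, and 22 and 24 in E14. The end segments 1 and 25 held peaks over 1.98 and 1.82 Mb only, and their densities are per Mb of that length. Counted over a full 5 Mb, segment 25 ranked between 45 and 99 and segment 1 between 109 and 162 over the 6 libraries. Those ranks follow peak number and do not show how dense the short stretches were.

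Within segment 24 the peaks were spread over all 5 windows of 1 Mb. The window from 115 to 116 Mb held 41 and 44 peaks in 3T3, 131 and 145 in P19 and 170 and 114 in E14. It was the densest window of chromosome 11 in P19 and E14. From 118 to 119 Mb there were still 28 and 27 peaks in 3T3, 85 and 101 in P19 and 101 and 74 in E14. In 3T3 the densest window lay in segment 25, from 120 to 121 Mb, with 58 and 53 peaks, where P19 had 118 and 127 and E14 had 151 and 97. Sparse stretches lay in the first part of the chromosome. Segment 8 (35 to 40 Mb) held the fewest peaks, with 5 and 8 in 3T3, 29 and 41 in P19 and 43 and 29 in E14, which was 0.213-fold the density of the other chromosomes in 3T3, 0.416-fold in P19 and 0.367-fold in E14.

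The larger share of P19 was spread along almost the whole chromosome. P19 took 8.59 ± 0.009% of its peaks from chromosome 11 and E14 7.33 ± 0.235% (SD, n = 2), a difference of 1.26 percentage points. In 24 of 25 segments the mean share was larger in P19, and in 20 of 25 both P19 libraries lay above both E14 libraries, against 21.2% of all 534 segments. Since this contrast chose the chromosome, nothing is read from that count. The 5 segments in which the libraries overlapped were 2, 6, 9, 22 and 25. On chromosome 11 the median ratio of the P19 to the E14 share was 1.16, and over the other 509 segments it was 0.985, of which 44.8% had a ratio above 1.

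In relative terms the 5 densest segments together and the other 20 together differed little. The ratio of the P19 to the E14 share was 1.18 in the 5 densest and 1.17 in the other 20. Single segments ran from 0.94 in the sparse segment 6 to 1.29 in the dense segment 20, while the sparse segment 3 had 1.27. The 5 densest accounted for 0.504 of the 1.26 points and the other 20 for 0.760. By stretch, the ratio was 1.14 in segments 1 to 10, 1.17 in segments 11 to 19 and 1.19 in segments 20 to 25. The last stretch gave 47.4% of the difference and held 42.7% of the chromosome 11 peaks of E14. The first stretch gave 15.7% of the difference and held 19.9% of those peaks.

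The largest differences came from segments that were themselves rich in peaks. Segment 20 gave 0.187 points, with shares of 0.857% and 0.824% in P19 and 0.678% and 0.631% in E14. Segment 24 gave 0.170 points, with 1.31% and 1.21% in P19 and 1.13% and 1.05% in E14. In both the P19 libraries lay above the E14 libraries. Segment 14 (65 to 70 Mb) gave 0.093 points, with 0.435% and 0.451% in P19 and 0.355% and 0.345% in E14. Segments 21 and 16 followed with 0.090 and 0.079 points. Together these 5 segments gave 48.9% of the difference and already held 42.2% of the chromosome 11 peaks of E14. The smallest differences were those of segment 8 (0.008 points), segment 9 (0.003) and segment 6 (-0.006). Segment 6 (25 to 30 Mb) took 0.085% and 0.086% of the P19 peaks and 0.086% and 0.097% of the E14 peaks, so that P19 replicate 2 and E14 replicate 1 met.

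**Figure D2:**
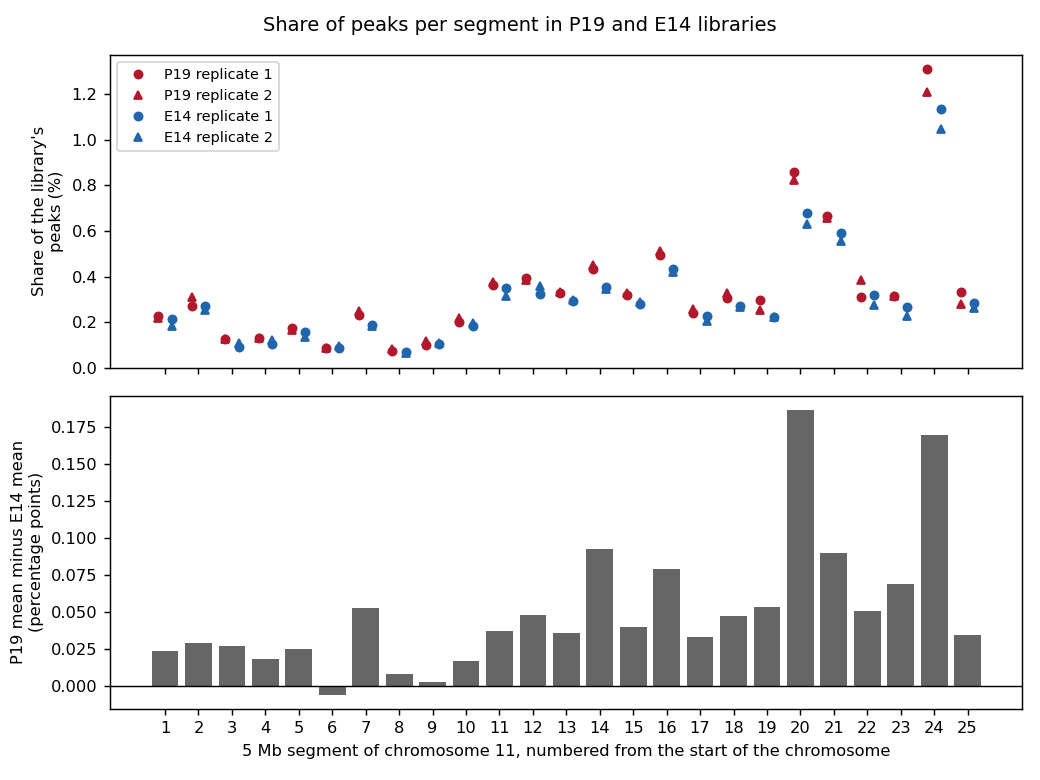
Share of the library's peaks (%, upper panel) in each segment of chromosome 11 for the P19 and E14 libraries, and the P19 mean minus the E14 mean in percentage points (lower panel). The difference is above 0 in 24 of 25 segments and largest in segments 20 (0.187 points) and 24 (0.170 points).

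At 1 Mb the mean share was higher in P19 than in E14 in 93 of 119 windows, against 50.3% of the windows with a peak in the genome, a count that again comes from the contrast that chose the chromosome. The largest single windows were 97 to 98 Mb (0.066 points), 69 to 70 Mb (0.065), 98 to 99 Mb (0.055) and 94 to 95 Mb (0.053), chosen after their values were seen. From 97 to 98 Mb there were 96 and 112 peaks in P19 and 112 and 63 in E14. That is 1.40 times the E14 share. None of these windows overlaps the HoxB interval.

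No other chromosome had as large a difference in share. On chromosome 11 it was 1.26 points, with a median segment ratio of 0.21 on the log2 scale, against 0.599 points and 0.17 on chromosome 6, which came next. Both P19 libraries lay above both E14 libraries in 80% of the segments on chromosome 11 and 40% on chromosome 6. Chromosome 14 lay at the other end, with -0.376 points and a median of -0.13. Shares of a library add up to 100%, so a larger share on 1 chromosome goes with smaller shares elsewhere. Within chromosome 11 the log2 ratios ran from -0.10 in segment 6 to 0.36 in segment 20, with quartiles of 0.16 and 0.25.

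**Figure D3:**
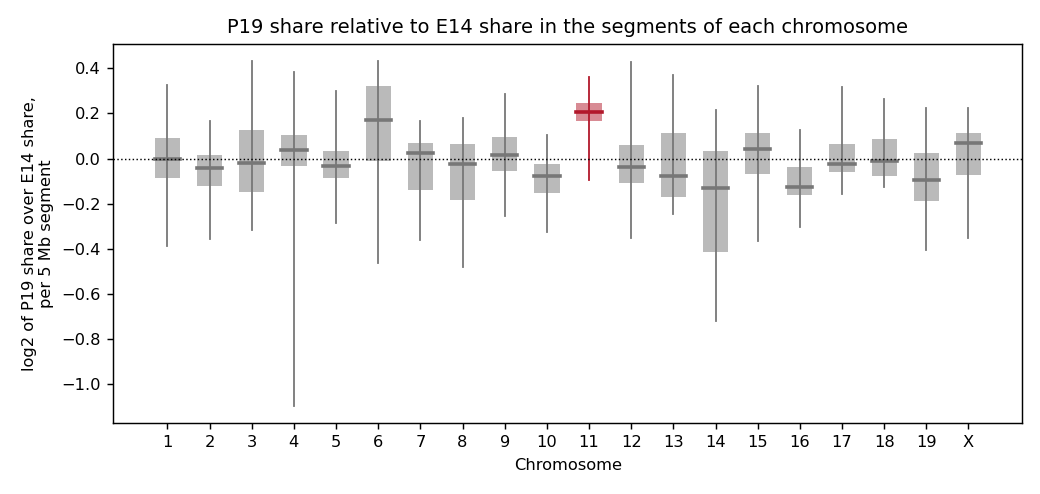
log2 of the P19 share over the E14 share per 5 Mb segment (y axis), summarised for each chromosome (x axis), where boxes span the quartiles over segments, thick lines mark the median and thin lines the full range. Chromosome 11 has the highest median (0.21), and its lower quartile (0.16) lies above 0.

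The peaks on chromosome 11 were of middling to low rank in P19 and E14. The authors' peak caller gave each peak a score, which was turned into a percentile rank within the library (100 for the strongest peak). The median percentile of the chromosome 11 peaks was 51.9 and 52.6 in 3T3, 49.4 and 46.5 in P19 and 45.5 and 46.5 in E14. Among 20 chromosomes these medians ranked 8 and 4 in 3T3, 12 and 20 in P19 and 20 and 17 in E14. The strongest peaks were thus rarer on chromosome 11 than its peaks overall in the lines with many peaks. In the highest score decile its share was 8.86 ± 0.276% in 3T3, 5.93 ± 0.507% in P19 and 4.79 ± 0.291% in E14 (SD, n = 2). Scores of 3100 or above, where many peaks were tied, were reached on chromosome 11 by 0 of 1 and 2 of 16 such peaks in 3T3, 70 of 1399 and 97 of 2108 in P19, and 6 of 198 and 3 of 140 in E14.

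The mean share of chromosome 11 was larger in P19 than in E14 in each of the 10 score deciles. Both P19 libraries lay above both E14 libraries in 8 of 10, and they overlapped in deciles 2 and 5. This contrast chose the chromosome, so nothing is read from that count, and none is given for other chromosomes. The difference of the means was smallest in decile 5 (0.694 points) and largest in decile 9 (1.68 points). Lists of equal length kept only the top 15462 peaks of each library by score, as many as the shortest list holds. In them chromosome 11 took 8.24% in 3T3, 7.96% in P19 and 6.34% in E14, so the mean share was largest in 3T3.

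**Figure D4:**
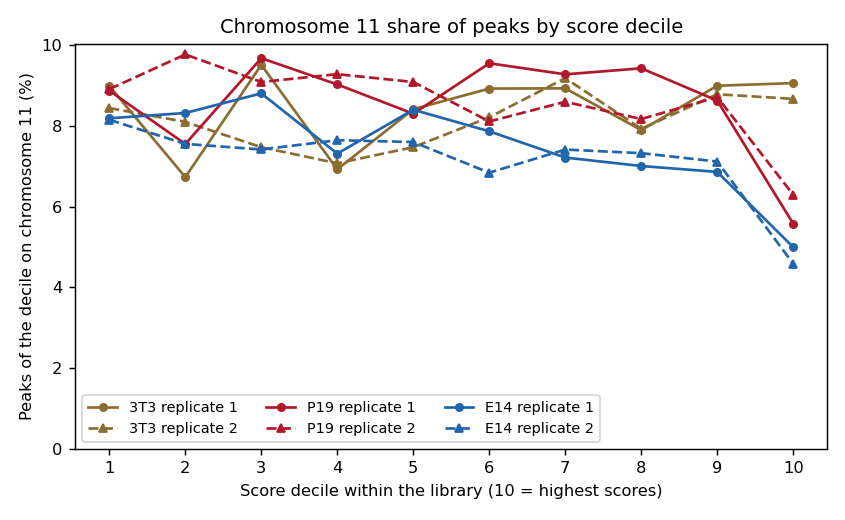
Percentage of the peaks of each score decile that lie on chromosome 11 (y axis), by decile of the authors' score within the library (x axis, 10 for the highest scores), with a line for each of the 6 libraries. In decile 10 the share drops to 5.57% and 6.29% in P19 and 4.99% and 4.58% in E14, while the 3T3 libraries stay at 9.06% and 8.67%.

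P19 peaks were also wider on chromosome 11. Their median width was 499 and 587 bp on chromosome 11, against 448 and 535 bp on the other chromosomes, and chromosome 11 had the widest peaks of the 20 in both P19 libraries. The segment medians exceeded the median of the other chromosomes in 22 of 25 segments in each P19 library, against 56.2% and 55.8% of all 534 segments. Within score deciles, chromosome 11 was wider in 10 of 10 in each. In 3T3 the medians were 407.5 and 893.5 bp on chromosome 11, against 400 and 870 bp elsewhere, with 14 and 16 of 25 segments above the other chromosomes (44.2% and 46.6% of all segments). In E14 they were 400 and 781 bp on chromosome 11, against 411 and 771 bp elsewhere, with 10 and 15 of 25 segments above (56.4% and 48.1% of all segments). The E14 libraries thus differed in direction over all peaks, although within score deciles chromosome 11 was wider in 9 and 10 of 10. In 3T3 it was wider in 2 and 4 of 10 deciles. Such decile counts are not given here for any other chromosome. Counted as covered bases in place of peaks, chromosome 11 took 9.34% in P19 and 7.26% in E14, a difference of 2.08 points, against 1.26 points for peaks.

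Peaks of chromosome 11 were found again in the other library of their line about as often as peaks elsewhere. Overlap of at least 1 bp was seen for 87.9% and 66.9% of them in 3T3, against 86.8% and 63.6% of the peaks of the other chromosomes. For P19 this was 87.6% and 64.4% on chromosome 11, against 87.7% and 65.2% elsewhere. For E14 it was 64.2% and 84.6% on chromosome 11, against 66.8% and 86.6% elsewhere, which placed chromosome 11 at rank 19 of 20 in both E14 libraries. In each line the shorter list was found again to the larger extent.

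Chromosome 11 held more P19 peaks without an E14 counterpart than any other chromosome, as a share of its P19 peaks. Of its P19 peaks, 79.2% and 71.8% overlapped a peak of an E14 library, against 86.6% and 80.7% of the P19 peaks elsewhere. Both values were the lowest of 20 chromosomes. Among P19 peaks that overlapped E14, chromosome 11 took 7.98% and 7.77%, and among those that did not, 12.8% and 12.2%. Chromosome 11 thus weighed more among the P19 peaks without an E14 partner than among those with one. In the reverse direction, 71.7% and 83.0% of the E14 peaks on chromosome 11 overlapped a P19 peak, against 68.2% and 79.6% elsewhere. Both measures follow from the same contrast that chose the chromosome and are given without a test.

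Regions found in both libraries of a line numbered 951 in 3T3, 2785 in P19 and 2607 in E14 on chromosome 11. Merged over lines they gave 3570 regions, of 45591 in the genome. P19 alone held 773 of them (21.7%), against 13.02% of the regions elsewhere, the largest share of 20 chromosomes. E14 alone held 601 (16.8%), against 22.4% elsewhere, the smallest share. P19 with E14 held 1253 (35.1%, against 40.6% elsewhere), and all 3 lines held 625 (17.5%, against 15.2%). Among regions that included 3T3, 181 belonged to 3T3 alone, 63 to 3T3 with P19 and 74 to 3T3 with E14. The 63 regions of 3T3 with P19 were 1.76% of the chromosome 11 regions, against 1.05% elsewhere, again the largest share of 20. Combinations that part P19 from E14 follow from the contrast that chose the chromosome, so these shares and ranks are given without a test. Without P19 replicate 1 the count for P19 alone was 1941, and without E14 replicate 2 it was 501 for P19 alone and 1930 for E14 alone.

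These combinations varied along the chromosome. Segment 23 had the highest share of P19 regions without other lines, 48 of 127 (37.8%), and only 46.3% of its P19 regions overlapped an E14 region. Segment 19 followed with 38 of 124 (30.6%). In the sparse segments 6, 8 and 9 the P19 regions mostly had an E14 partner, in 93.1%, 88.0% and 89.2% of cases. In the dense segment 24, 115 of 500 regions (23.0%) belonged to P19 alone, 94 to E14 alone and 188 to both without 3T3. Regions of all 3 lines were most frequent at the end of the chromosome, in segment 25, with 36 of 128 (28.1%).

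At the 1878 chromosome 11 regions held by both P19 and E14, the median difference in score percentile, P19 minus E14, was 0.75. It was the highest of 20 chromosomes, the others running from -4.44 to -0.43. The difference sets P19 against E14, as did the contrast that chose the chromosome, and is given without a test. Between single libraries the median difference on chromosome 11 ran from -4.61 (P19 replicate 1 minus E14 replicate 1) to 5.81 (replicate 2 minus replicate 2), so its sign rests on the libraries compared. By segment the median was highest in segment 18 (6.82, 55 regions) and segment 19 (5.65, 56 regions) and lowest in segment 4 (-5.27, 37 regions).

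The best-ranked regions of chromosome 11 were scattered and lay mostly outside the densest segments. Among regions of all lines, the first was chr11:74978553-74983177 in segment 15, with scores of 1389 and 3208 in 3T3, 3100 in both P19 libraries, and 1093 and 1892 in E14. The next were chr11:80289615-80291962 and chr11:71563814-71565402. Scores can be compared only within a library. Among regions of P19 and E14, the first was chr11:13514914-13517092 in the sparse segment 3, which scored 3100 in both P19 libraries and 3100 and 2815 in E14. It had no peak in 3T3 replicate 1 and a peak scoring 52.4 in 3T3 replicate 2. The others were chr11:45582829-45584885, with no 3T3 peak, and chr11:56017041-56019029, with a peak scoring 99.0 in 3T3 replicate 2 alone.

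Among regions of P19 alone, the first was chr11:87218155-87219017 in segment 18, with scores of 1505 and 1585 in P19. It had peaks scoring 125.0 in 3T3 replicate 2 and 113.0 in E14 replicate 2 and none in the other libraries of those lines. The second, chr11:102999394-103000500 in segment 21, scored 1432 and 1366 in P19 and 188.7 in E14 replicate 1. The third, chr11:57642529-57644237 in segment 12, scored 1027 and 1523 in P19, 160.5 in 3T3 replicate 2 and 127.6 in E14 replicate 1. A region of P19 alone could thus carry weak single peaks in the other lines.

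Some segments of chromosome 11 took a different share of the peaks in 3T3 than in P19 or E14, as did many segments elsewhere in the genome. The share of peaks per segment was compared with limma on log2 of peaks per 1000 peaks of the library, with a pseudocount of 0.5 peaks, over all 534 segments and with Benjamini-Hochberg adjustment over them. Separate cultures for the libraries within a line are not stated in the labels, and the p-values may thus measure a technical spread. Both comparisons of 3T3 share libraries with the contrast that chose the chromosome, and they share the 3T3 libraries with each other. A chromosome chosen for a larger share in P19 than in E14 favours 3T3 values above E14 and below P19. The p-values do not allow for that choice, so nothing is read from the medians and counts below beside those of all segments. The median log2 difference on chromosome 11 was 0.13 for 3T3 minus E14 and -0.06 for 3T3 minus P19, against -0.04 and -0.03 over all segments.

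Relative to E14, the share was higher in 3T3 in 8 of 25 segments (5, 11, 15, 16, 17, 20, 21 and 25), against 15.5% of all segments. It was lower in 3 of 25 (4, 8 and 23), against 23.6% of all segments. Relative to P19, it was higher in 6 of 25 (5, 15, 16, 17, 21 and 25), against 17.0% of all segments. It was lower in 8 of 25 (3, 4, 7, 8, 10, 19, 23 and 24), against 24.0%.

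Leaving out a library changed these counts, while none of the called differences changed direction. A line left with 1 library has no spread of its own, and the fit then assumes that it varies like the other lines. Where the library belonged to a line outside the comparison, the differences stayed as they were and only their error moved. Relative to E14, 5 segments were higher in 3T3 without E14 replicate 1 and 3 without E14 replicate 2. A single segment was lower without any 1 of the P19 or E14 libraries, and 5 were lower without 3T3 replicate 2. Relative to P19, 2 segments were higher in 3T3 without P19 replicate 1, 1 without P19 replicate 2, and 2 without either E14 library. Without P19 replicate 1, 2 were lower, without P19 replicate 2, 4, and without either E14 library, 5. The calls of segments 5, 16 and 21 against E14 held under all 16 alternatives, and each other call was lost under at least 1 of them.

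With all peaks counted, segment 23 (110 to 115 Mb) had the largest difference on the chromosome, but with lists of equal length it did not pass the threshold. It held 19 and 23 peaks in 3T3, 126 and 162 in P19 and 165 and 98 in E14. Its share of the library was 0.123% and 0.131% in 3T3, 0.315% and 0.316% in P19, and 0.267% and 0.226% in E14. Both 3T3 libraries lay below all others. The log2 difference was -0.92 (SE 0.11, limma adjusted p = 0.0003348) for 3T3 minus E14 and -1.29 (SE 0.11, limma adjusted p = 0.0001338) for 3T3 minus P19. When only the top 15462 peaks of each library were kept, the differences were -0.13 against E14 and -0.19 against P19 (limma adjusted p = 0.5538 and 0.3741). The 3T3 lists are the shortest of the 6. Most of its peaks lay in its last 2 Mb. From 113 to 114 Mb there were 10 and 8 peaks in 3T3, 62 and 78 in P19 and 90 and 57 in E14. From 114 to 115 Mb there were 6 and 9 peaks in 3T3, 46 and 58 in P19 and 47 and 25 in E14. The densest segment of the genome in the pluripotent lines, segment 24, adjoins it.

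Segment 24 was lower in 3T3 than in P19, with a log2 difference of -0.35 (SE 0.07, limma adjusted p = 0.002984), its share being 0.996% and 0.975% in 3T3 and 1.31% and 1.21% in P19. That call was lost with lists of equal length, at -0.10 (limma adjusted p = 0.3557), and with the best-scoring 50% of each list, at -0.14 (limma adjusted p = 0.3072). Against E14 the difference was -0.14 (95% interval -0.29 to 0.01, limma adjusted p = 0.1261). The sparse segments 4 and 8 had few 3T3 peaks, 12 and 14 in segment 4 and 5 and 8 in segment 8. Their log2 differences were -0.45 and -0.74 against E14 and -0.68 and -0.90 against P19, with limma adjusted p between 0.004409 and 0.0289. Counts this low leave wide intervals, such as -1.24 to -0.23 for segment 8 against E14. With a pseudocount of 2 peaks, the differences against E14 were -0.33 in segment 4 and -0.51 in segment 8 and did not pass the threshold.

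Segment 5 (20 to 25 Mb) was the segment with the largest rise in 3T3 when all peaks were counted. With lists of equal length, segments 11, 15, 16, 17 and 21 rose more against E14 (0.97 in segment 17, 0.81 in segment 5). Segment 5 held 38 and 40 peaks in 3T3, 70 and 85 in P19 and 96 and 59 in E14. Its share was 0.246% and 0.228% in 3T3, 0.175% and 0.166% in P19 and 0.156% and 0.136% in E14, and the lines did not overlap. The log2 difference was 0.71 (SE 0.11, limma adjusted p = 0.001429) against E14 and 0.48 (SE 0.11, limma adjusted p = 0.008229) against P19, where the adjusted p was 0.06352 without P19 replicate 2. Segment 15 (70 to 75 Mb) rose by 0.64 on the log2 scale against E14 and 0.46 against P19, with limma adjusted p of 0.002177 and 0.01165. In it the 3T3 libraries themselves differed, with 0.504% and 0.388%. Segment 25 rose by 0.58 against E14 and 0.42 against P19 (limma adjusted p = 0.002969 and 0.01462). Segments 16, 17 and 21 had smaller rises, between 0.44 and 0.48 against E14 and between 0.22 and 0.27 against P19. Against P19 these calls were not firm: by covered bases the differences were 0.13 in segments 16 and 17 and -0.029 in segment 21, and with the best-scoring 50% of each list 0.16 in segment 21, none past the threshold. Segments 11 and 20 rose against E14, by 0.41 and 0.30, while against P19 they had 0.26 and -0.06 and did not pass the threshold.

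**Figure D5:**
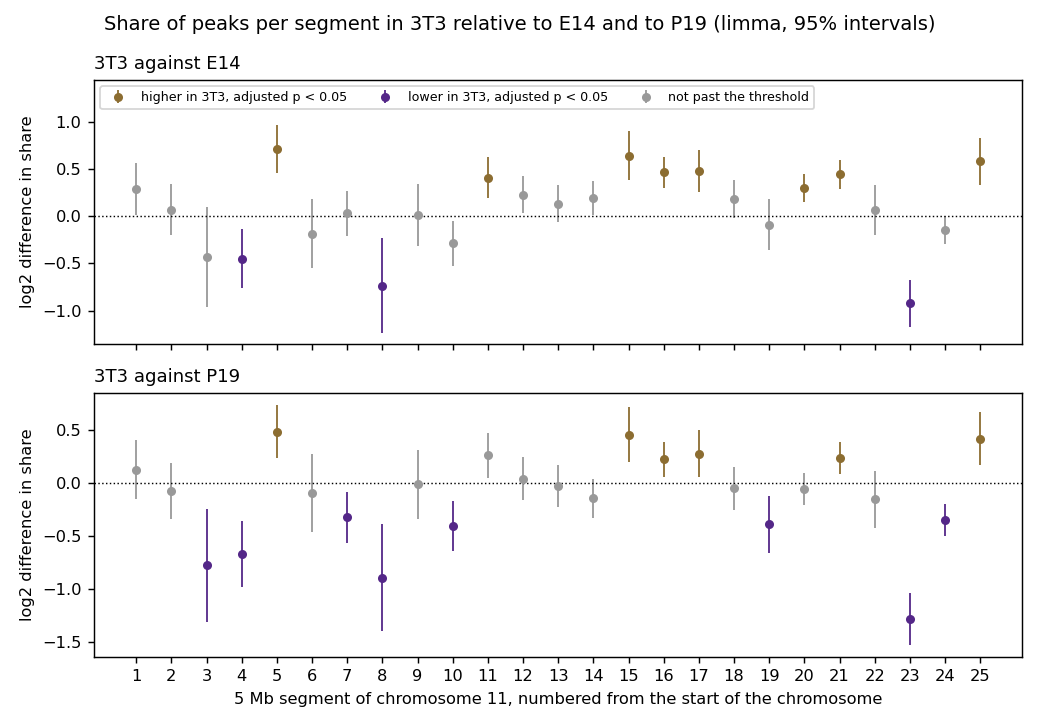
log2 difference in the share of peaks per segment of chromosome 11 (y axis) for 3T3 minus E14 (upper panel) and 3T3 minus P19 (lower panel), with points for the limma estimate and bars for its 95% interval. With all peaks counted, segment 23 is lowest in both panels (-0.92 and -1.29), and segment 5 is highest (0.71 and 0.48).

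Leaving out the HoxB interval removed few peaks. The peaks left out numbered 4 and 9 in 3T3, 30 and 26 in P19 and 9 and 12 in E14. The first peaks inside the interval began at or after 96055640 and the last ended by 96228502, with scores between 53.5 and 288.9. The nearest peaks outside ended by 96039466 below it and began at or after 96251891 above it, with scores between 50.2 and 415.9, so no peak crossed either limit.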

How the data were processed

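Each of the 6 deposited lists holds the chromosome, start, end, name and score of the peaks that the authors called in 1 library, in mm9. Tools listed in the submitters' processing notes are BWA 0.7.13-r1126, SAMtools 1.3, CASAVA 1.8 and bcl2fastq 1.8. Each peak name starts with MACS, a peak caller. Its version, threshold, score scale and use of input were not given in the sources used here. Many deposited scores are tied at 3100, so the authors' score served only as a rank within a list. Read depth is unknown.

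Samples were grouped by line and replicate number from their titles. Peaks were placed in 5 Mb segments by midpoint, a share being a segment's peaks over all peaks of the library. Peaks overlapped from 1 bp. A region of a line joins overlapping peaks of both libraries. Shares carry Wilson 95% intervals. Segments with a mean of at least 10 peaks entered limma 3.58.1 (R 4.3.3, trend), tested on simulated data. Other steps used Python 3.11.15, pandas 2.3.3, NumPy 2.4.6, SciPy 1.17.1 and Matplotlib 3.10.9.

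Members, segments and comparisons were chosen with earlier results of these data known. Named were the 5 densest segments, the 5 largest and 3 smallest P19 minus E14 differences, segments past the limma threshold (adjusted p of 0.05), the 3 densest 1 Mb windows per line, the 3 best-ranked regions of 3 combinations, and the peaks next to the HoxB limits. Genes and sequences were left out, because the gene table is of GRCm38 and not of mm9. Alternatives were the best-scoring 50% of each list, lists of equal length, HoxB peaks kept, autosomes alone, covered bases, other segment limits, another pseudocount, no minimum, centring, overlap of 50% of the shorter peak, leaving out each library and a replicate block.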

Additional observations from a re-analysis of the deposited data

How the results depend on the processing

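Every alternative in which it was computed kept the chromosome 11 share larger in P19 than in E14. That contrast chose the chromosome, and the alternatives use the same lists, so they give it no independent support. The difference was 1.51 points with the best-scoring 50% of each list, 1.62 with lists of equal length and 2.08 by covered bases, and 1.10 to 1.43 on leaving out a library. The share itself was 8.65% in 3T3, 8.23% in P19 and 6.72% in E14 with the best-scoring 50%, and 8.51% in 3T3, 8.90% in P19 and 7.60% in E14 over autosomes alone. With lists of equal length it was 8.24% in 3T3, 7.96% in P19 and 6.34% in E14. In P19 it was 8.65% with HoxB kept and 9.34% by covered bases. Leaving out a library gave 8.13% to 8.43% in 3T3, 8.59% to 8.60% in P19 and 7.16% to 7.49% in E14.

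Segments with both P19 libraries above both E14 libraries numbered 11 of 13 with segments of 10 Mb, 14 of 25 with lists of equal length and 20 to 23 of 25 without a library. The 5 densest segments held 37.5% in 3T3 and 36.8% in E14 with the best-scoring 50%, 38.5% in 3T3 and 35.3% in E14 with equal lengths, and 39.1% in 3T3 with HoxB kept. The densest segments of 10 Mb held 30.6% in 3T3, 34.9% in P19 and 33.9% in E14. Fewer than 5 of them were taken, so these values cannot be set beside those of the 5 densest segments. With limits shifted by 2.5 Mb, the 5 densest held 43.1% in 3T3, 45.5% in P19 and 44.6% in E14. Without a library the range was 38.7% to 38.9% in 3T3, 37.1% to 39.5% in P19 and 37.4% to 38.7% in E14. The median percentile was 50.5 in 3T3 with the best-scoring 50%, 44.7 in P19 and 43.9 in E14 with equal lengths, and without a library 51.9 to 52.6 in 3T3, 46.5 to 49.4 in P19 and 45.5 to 46.5 in E14. Recovery between the libraries of a line, 77.4% in 3T3, 76.0% in P19 and 74.4% in E14, does not use other lines, so leaving out their libraries cannot change it. It was 83.6% in 3T3, 83.9% in P19 and 79.2% in E14 with the best-scoring 50%, and 79.7% in 3T3, 85.7% in P19 and 80.6% in E14 with equal lengths.

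Region counts moved with list length. In the best-scoring 50%, all lines held 304, P19 with E14 710, P19 alone 429 and E14 alone 228. With equal lengths, all lines held 255, P19 with E14 344, P19 alone 316, E14 alone 115, 3T3 alone 498 and 3T3 with P19 105. Fewer peaks entered both. Leaving out a library gave 138 to 391 for 3T3 alone (391 without 3T3 replicate 1, 312 without replicate 2), 33 to 107 for 3T3 with P19 (33 without E14 replicate 1, 107 without P19 replicate 1, 99 without 3T3 replicate 1, 98 without P19 replicate 2) and 23 to 111 for 3T3 with E14 (23 without P19 replicate 1, 111 without E14 replicate 2). It gave 632 to 814 for all lines, 1063 to 1563 for P19 with E14, 501 to 1941 for P19 alone, and 350 (without P19 replicate 1) to 1930 for E14 alone, with 904 without E14 replicate 1.

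For 3T3 against E14, 14 segments were higher and 5 lower with the best-scoring 50%, 6 lower with equal lengths, 5 lower by covered bases and 1 lower with a pseudocount of 2 peaks. For 3T3 against P19, 3 were higher by covered bases, with centring, with segments of 10 Mb and with shifted limits, and 4 lower with segments of 10 Mb. Leaving out a library gave 3 to 10 higher and 1 to 5 lower against E14, and 1 to 8 higher and 2 to 8 lower against P19. With the replicate number as a block, 5 segments were lower in 3T3 against E14, and likewise with the P19 numbers crossed, a pairing added after the data were seen; other counts stayed within 1.5 times. Deviations from the line means correlated by -0.17 between 3T3 and P19, 0.28 between 3T3 and E14 and -0.27 between P19 and E14 libraries of the same number, so the numbers were not taken as pairs. Of 400 alternative values for single segments, 328 kept direction and side of the threshold and 71 kept direction alone. For many of them the log2 difference could not change, so its direction was fixed in advance. These were the replicate blocks, no minimum, and leaving out a library of the line outside the comparison. Lists of equal length ended the calls of segment 23 in both comparisons and of segments 7 and 24 against P19. Segment 21 reversed by covered bases, at -0.029 for 3T3 minus P19 (limma adjusted p = 0.6699). Where not named, the cause was not tested.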
